A study of Mus musculus with 20 samples.

Results

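The genes described here are 40 imprinted genes of the mouse, which are transcribed mainly or only from the copy inherited from 1 parent. They were taken from a list of known imprinted genes, and 39 of them have a model among the 37273 genes of the GENCODE annotation of NCBIM37 (mm9). Kcnq1ot1, which has no model there, was placed by the exact match of its promoter sequence, and only the 5 kb on each side of its start were used. For every other gene the window was the gene body plus 5 kb on each side. The joined windows held 2.50 Mb, or 0.0976% of the ungapped genome.

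5-Formylcytosine (5fC) was measured by chemical pull-down and sequencing in tissues dissected from E11.5 WT and *Tdg* null mouse embryos, the null embryos carrying the knock-out of *Tdg* given by the labels and the WT embryos being their littermates. Hindbrain was taken from 4 embryos of each genotype, in the litters A, O, Q and Z, and heart, liver and carcass from 2 embryos of each genotype, in the litters pair_a and pair_b, which gave 20 libraries of 12 embryos. Heart, liver and carcass of a litter and genotype were taken from the same embryo, so these tissues share embryos. The *Tdg* null liver of litter pair_b held 228 peaks, none of them in a window of an imprinted gene, and was set aside, which left 19 libraries. Values of 4 hindbrains are given below in the order of litters A, O, Q and Z, and those of other tissues in the order pair_a and pair_b.

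The deposited values are peak positions, so the measure used is the share of a window lying under peaks. The 9 *Tdg* null libraries held 101344 to 254319 peaks, which covered 2.68% to 8.09% of the genome, and the 10 WT libraries held 1563 to 42012 peaks, which covered 0.0349% to 0.939%. Sequencing depth is unknown from these positions, and its part in the results was not tested. To compare genes across libraries the relative coverage was used, which is the percent of the window under peaks over the percent of the genome under peaks in the same library, so that 1 is the level of the whole genome. Of 8 genes marking the heart the median relative coverage was 4.96 and 5.36 in *Tdg* null hearts, 3.51 in the *Tdg* null liver and 0.341 to 1.07 in *Tdg* null hindbrains and carcasses. Of 8 genes marking the hindbrain it was 0.142 to 0.552 in *Tdg* null hindbrains, with 4 of the 8 at 0 in each of them, 0.223 and 0.505 in *Tdg* null carcasses, and 0 in both *Tdg* null hearts and the *Tdg* null liver, so their range in hindbrain overlapped that in carcass and lay above heart and liver. At *Tdg* itself peaks lay in 8 of the 9 *Tdg* null libraries and in 3 of the 10 WT libraries, and peak positions cannot show the deletion. Each library is a mixture of the cells of a tissue, in which fewer marked cells and less 5fC per cell cannot be told apart.

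Imprinted genes lie in clusters, each governed by a control region whose CpGs are methylated on only 1 parental copy from the germline onward. The methylated copy is protected after fertilisation by ZFP57 and its partners, which bind a short methylated motif, while TET enzymes oxidise 5-methylcytosine elsewhere to 5-hydroxymethylcytosine, 5fC and 5-carboxylcytosine. TDG, a glycosylase, removes 5fC and 5-carboxylcytosine from DNA, so that 5fC accumulates in the absence of TDG where oxidation takes place. Peaks do not tell which parental copy carried the mark, and the alleles were not resolved here.

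Stretches of imprinted gene windows found under peaks in many libraries are shown first, 1 for each of 4 clusters, because the mark was seen there in many separate embryos. CpGs, the sites of most cytosine methylation in mammals, are in capitals, and the strand is the plus strand of NCBIM37. In Mirg, a maternally expressed noncoding RNA that hosts microRNAs, chr12:110984301-110984600 lay under peaks of 13 of the 19 libraries, with 7 CpGs. In Ppp1r9a, which encodes the actin-binding protein neurabin, chr6:5030951-5031250 lay under peaks of 13 libraries, with 6 CpGs. In Mest, which encodes a hydrolase-like protein, chr6:30680201-30680400 lay under peaks of 12 libraries, with 2 CpGs, and in Grb10, an adaptor that restrains growth factor signalling, chr11:11848201-11848300 lay under peaks of 12 libraries, with 0 CpGs.
Mirg chr12:110984301-110984600: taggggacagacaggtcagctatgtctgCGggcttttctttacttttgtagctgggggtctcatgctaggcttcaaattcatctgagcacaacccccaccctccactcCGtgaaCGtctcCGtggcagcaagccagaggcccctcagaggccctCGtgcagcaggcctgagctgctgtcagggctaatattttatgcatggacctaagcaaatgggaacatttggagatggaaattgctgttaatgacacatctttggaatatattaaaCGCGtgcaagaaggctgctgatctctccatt
Ppp1r9a chr6:5030951-5031250: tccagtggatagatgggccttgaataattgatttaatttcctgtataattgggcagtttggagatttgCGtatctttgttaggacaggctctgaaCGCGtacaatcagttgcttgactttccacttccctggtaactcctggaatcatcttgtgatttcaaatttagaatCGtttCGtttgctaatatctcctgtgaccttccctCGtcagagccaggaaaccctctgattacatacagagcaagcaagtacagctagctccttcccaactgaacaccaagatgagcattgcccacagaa
Mest chr6:30680201-30680400: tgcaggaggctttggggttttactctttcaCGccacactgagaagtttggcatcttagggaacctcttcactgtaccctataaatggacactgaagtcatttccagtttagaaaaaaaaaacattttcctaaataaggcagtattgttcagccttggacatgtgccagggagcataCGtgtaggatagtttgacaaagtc
Grb10 chr11:11848201-11848300: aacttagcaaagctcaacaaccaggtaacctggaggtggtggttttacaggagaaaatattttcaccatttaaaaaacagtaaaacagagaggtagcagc
The 4 stretches range from 0 to 7 CpGs, all of them in introns. A stretch in an exon of H13, which encodes signal peptide peptidase, at chr2:152531901-152532200, also lay under peaks of 12 libraries and held 18 CpGs. Each was chosen for its number of libraries, so these counts are a description.

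Imprinted gene windows were covered above the genome level in all 9 *Tdg* null libraries. In *Tdg* null hindbrain 5.98%, 4.33%, 5.78% and 5.25% of the joined windows lay under peaks, in WT hindbrain 0.0721%, 0.401%, 0.689% and 0.168%. In *Tdg* null heart the shares were 19% and 9.0%, and in WT heart 0.152% and 0.345%. In *Tdg* null carcass they were 10.7% and 14.9%, and in WT carcass 1.86% and 1.43%. The genotypes did not overlap in these 3 tissues. The *Tdg* null liver had 7.59% and the WT livers 0.487% and 0.0681%, with no test because 1 *Tdg* null liver was left.

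Relative to the genome, the joined windows stood at 1.66, 1.62, 1.64 and 1.43 in *Tdg* null hindbrain (1.59 ± 0.107, SD, n = 4), at 2.35 and 2.47 in *Tdg* null heart, at 1.98 and 1.98 in *Tdg* null carcass and at 2.50 in the *Tdg* null liver. WT libraries ranged from 1.15 to 4.81 on the same scale and overlapped the *Tdg* null libraries. All 19 libraries lay above 1. The WT ratios rest on 3 to 69 peaks of a library in the joined windows, and the *Tdg* null ratios on 141 to 487. The median imprinted gene had a relative coverage of 1.31 in *Tdg* null hindbrain, against 0.595 for all 37273 genes, 1.49 against 0.609 in *Tdg* null heart, and in carcass 1.77 against 0.422. Only 3 imprinted genes (7.69%) had no covered base in any *Tdg* null hindbrain, against 30.5% of all genes. Window lengths were not matched in these comparisons of imprinted genes with all genes. Of the genes with windows at least as long as that of Snrpn, 2.01% had no covered base in *Tdg* null hindbrain. Within the windows of imprinted genes introns stood at 1.69 and exons at 1.59 in *Tdg* null hindbrain, and the 5 kb upstream at 0.934. The same parts of all genes stood at 1.27, 1.65 and 1.02. In heart the exons of imprinted genes stood at 2.43 against 1.82 for all genes and the 5 kb upstream at 1.80 against 1.11, and in carcass at 2.48 against 1.30 and 1.53 against 0.908. Stretches under peaks of at least 2 *Tdg* null hindbrains held 16.8 CpGs per kb, the rest of the windows 10.3 and the genome 8.34. Peaks of *Tdg* null hindbrain had 16.9 ± 0.525 CpGs per kb in imprinted gene windows and 17 ± 0.397 over the whole genome (SD, n = 4).

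**Figure D1:**
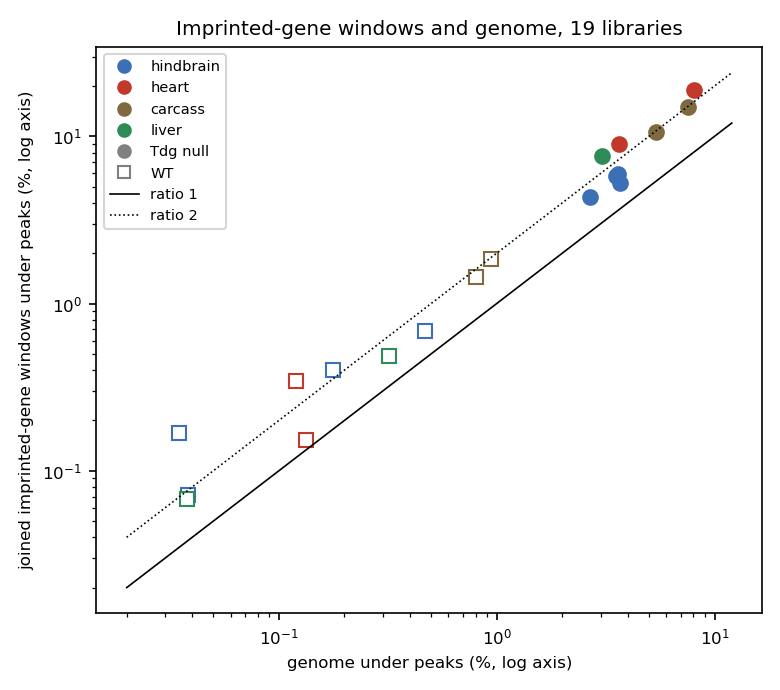
Percent of the joined windows of imprinted genes under peaks (vertical axis) against the percent of the genome under peaks (horizontal axis), both logarithmic, with 1 point for each of 19 libraries, filled circles for *Tdg* null, open squares for WT and colours for tissues. The solid line marks a ratio of 1 and the dotted line a ratio of 2, and every library lies above the solid line, from 1.15 to 4.81. WT points rest on 3 to 69 peaks in the joined windows.

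The comparison of genotypes asks where 5fC accumulates when TDG is missing. Of the 37 imprinted genes covered in at least 2 libraries, 27 were higher in *Tdg* null than in WT hindbrain and 0 were lower (limma on log2 of the percent covered plus 0.5, Benjamini-Hochberg adjusted p below 0.05 over 27810 genes; n = 4 and 4). Over all genes tested 73.9% were higher, so the share of imprinted genes was near the background. Their median log2 difference was 2.51, against 2.65 over all genes. In heart 27 of 37 were higher and 0 lower, with a background of 73.1% and medians of 4.0 and 3.51 (n = 2 and 2). In carcass 24 of 37 were higher and 0 lower, with a background of 62.4% and medians of 2.34 and 2.38 (n = 2 and 2). At the unadjusted p below 0.05 the count was 27 in hindbrain, 27 in heart and 26 in carcass, where 75.4%, 75.1% and 66.9% of all genes passed. Phlda2, a maternally expressed regulator of placental growth, had no peak in any library, and Dio3, a deiodinase, had 1 peak in 1 *Tdg* null hindbrain, so neither was tested. Kcnq1ot1, which has no gene model, was not tested either. Magel2 passed the filter of 2 libraries only through *Tdg* null hindbrain and Usp29 only through *Tdg* null heart and liver, so their direction follows from the filter, and 26 genes were higher without Magel2 in hindbrain and 26 without Usp29 in heart. The counts still include Slc22a18 in hindbrain and heart and Impact in hindbrain and carcass. Neither had a peak in any WT library, so both passed the filter through *Tdg* null libraries alone and could not be lower.

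Every *Tdg* null hindbrain lay above every WT hindbrain for 20 of the 37 genes, where 60.3% of all genes did so, and the smallest two-sided exact permutation p that 4 against 4 libraries allow is 0.0286. In heart this held for 27 genes (background 71.5%) and in carcass for 27 genes (background 69.5%). The heart count includes Usp29. Among the smallest adjusted p-values in hindbrain, Grb10 had a log2 difference of 3.93 (SE 0.29, adjusted p = 7.0e-08), Sgce a log2 difference of 3.97 (SE 0.30, adjusted p = 1.0e-07) and Gnas a log2 difference of 3.85 (SE 0.30, adjusted p = 1.3e-07). Sgce encodes a sarcoglycan and Gnas the stimulatory G-protein alpha subunit. The number of peaks moved with genotype across the whole genome. With relative coverage in place of the percent, 16 genes were higher and 2 (Peg10 and Copg2) lower in hindbrain, 16 higher and 1 (Copg2) lower in heart, and 3 higher and 1 (Igf2) lower in carcass. Over all genes 50.5%, 44.5% and 21.8% were then higher and 0.816%, 1.04% and 2.45% lower. The median log2 difference over all genes moved to 1.71, 1.92 and 0.75. Without the *Tdg* null carcass of litter pair_b 15 genes were higher in carcass, and 53.4% of all genes.

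**Figure D2:**
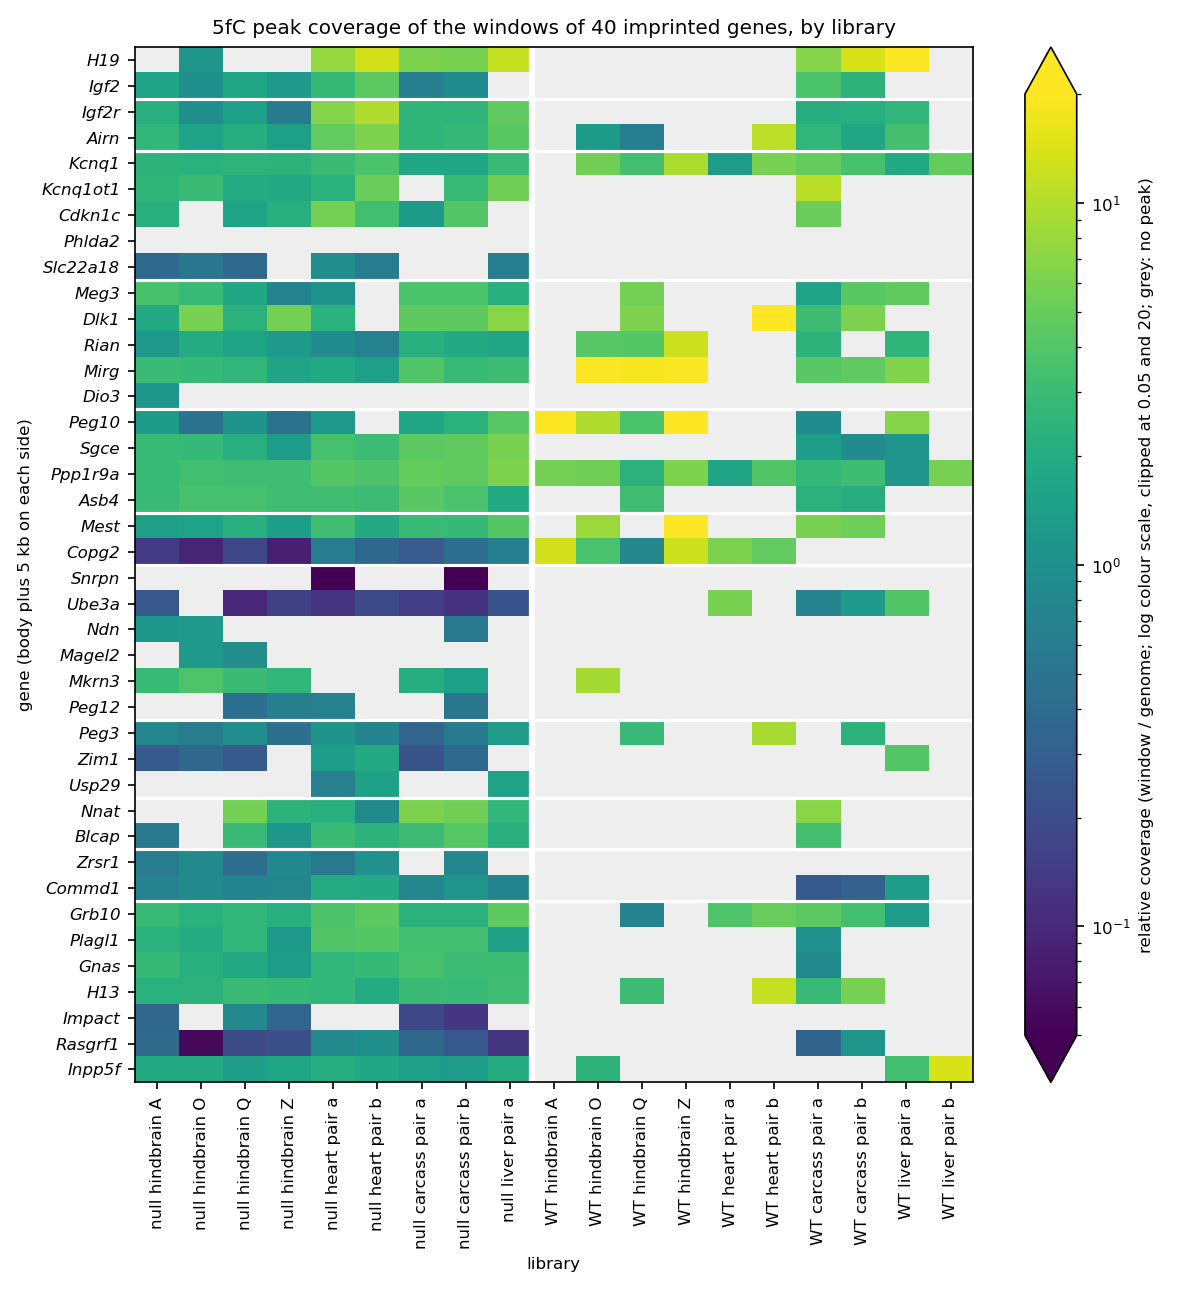
Relative coverage of each imprinted gene (rows, grouped by cluster) in each library (columns, *Tdg* null left and WT right of the white line), on a logarithmic colour scale that ends at 0.05 and 20, with grey where no peak lay. *Tdg* null libraries hold peaks in 28 to 35 of the genes and WT libraries in 3 to 25, and the rows of the Snrpn cluster are mostly grey or dark.

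Snrpn, Ube3a, Ndn and Peg12, all of 1 cluster, were called in none of the 3 tissues. Peg10 and Copg2 were not called in hindbrain, where every WT library was covered too. H19, a noncoding RNA, was not called in hindbrain, where only 1 *Tdg* null library was covered, nor in carcass, where both WT libraries were covered. The values of each cluster follow. Windows of Igf2r and Airn, Kcnq1 and Kcnq1ot1, Mest and Copg2, Peg10 and Sgce, Nnat and Blcap, Zrsr1 and Commd1, Peg3 and Zim1, and Phlda2 and Slc22a18 share sequence, so their values share peaks.

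H19 and Igf2 lie together on chromosome 7. Igf2, at chr7:149836673-149852721, encodes a fetal growth factor expressed from the paternal copy, and H19, at chr7:149761434-149764048, gives a maternal noncoding RNA. Relative coverage of the H19 window was 0, 1.19, 0 and 0 in *Tdg* null hindbrain, 7.8 and 13.6 in heart, 6.18 and 6.05 in carcass and 11.7 in liver. H19 was the most covered of the imprinted genes in *Tdg* null heart, and 3 of the 4 *Tdg* null hindbrains held no peak. WT carcass stood at 6.75 and 13.8, and 1 WT liver at 19.9 with the other at 0, on 1 peak each, while WT hindbrain and heart held no peak. H19 was lower in *Tdg* null hindbrain than in heart, with a log2 difference of -4.77 (SE 0.77, adjusted p = 0.0059), and lower than in carcass, with a log2 difference of -4.04 (SE 0.77, adjusted p = 0.032). The Igf2 window stood at 1.6, 1.0, 1.74 and 1.26 in hindbrain, 2.75 and 4.43 in heart, 0.641 and 0.915 in carcass and 0 in liver, with WT carcass at 3.68 and 2.39. Igf2 was lower in *Tdg* null hindbrain than in heart (log2 difference -1.21, SE 0.29, adjusted p = 0.025) and higher in heart than in carcass (log2 difference 1.88, SE 0.34, adjusted p = 0.011). In both *Tdg* null carcasses the Igf2 window stood below the genome level and the H19 window above it. Of the libraries left out in turn, H19 kept its call between hindbrain and carcass only without the *Tdg* null hindbrain of litter O, the one with a peak, and 0 imprinted genes were lower in hindbrain without any of the other hindbrains or either carcass.

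Igf2r, at chr17:12875272-12962530, encodes the maternally expressed receptor that clears IGF2, and Airn, at chr17:12934177-13052988, is the paternal antisense RNA that silences it. The Igf2r window stood at 2.2, 0.999, 1.46 and 0.588 in *Tdg* null hindbrain, 6.67 and 9.81 in heart, 2.52 and 2.53 in carcass and 4.61 in liver. Both hearts lay above every other *Tdg* null library. WT carcass stood at 2.08 and 2.18, and no peak lay there in WT hindbrain or heart. Igf2r was lower in *Tdg* null hindbrain than in heart, with a log2 difference of -2.53 (SE 0.43, adjusted p = 0.0073). The Airn window stood at 2.61, 1.63, 2.07 and 1.52 in hindbrain, 4.73 and 6.25 in heart, 2.49 and 2.72 in carcass and 4.28 in liver, with WT carcass at 2.56 and 1.74. It followed the same order, heart above hindbrain (log2 difference -1.39, SE 0.26, adjusted p = 0.0098). Between heart and carcass Igf2r had a log2 difference of 1.59 (SE 0.50, adjusted p = 0.063) and Airn a log2 difference of 0.99 (SE 0.30, adjusted p = 0.055), neither of them called.

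The Kcnq1 cluster holds the potassium channel gene Kcnq1, its paternal antisense RNA Kcnq1ot1, the cell cycle inhibitor Cdkn1c, the transporter Slc22a18 and Phlda2. Kcnq1 was even among hindbrains, at 2.39, 2.3, 2.44 and 2.4 in *Tdg* null hindbrain, 2.94 and 3.69 in heart, 1.78 and 1.69 in carcass and 2.91 in liver. It was covered in 9 of the 10 WT libraries, at 0, 5.5, 3.36 and 9.54 in hindbrain, 1.37 and 6.06 in heart, 4.91 and 3.48 in carcass and 1.9 and 4.82 in liver. Kcnq1 was higher in *Tdg* null heart than in carcass, with a log2 difference of 0.84 (SE 0.20, adjusted p = 0.027). The 5 kb around the Kcnq1ot1 start stood at 2.5, 2.99, 1.99 and 1.91 in *Tdg* null hindbrain, 2.28 and 5.08 in heart, 0 and 2.84 in carcass and 5.44 in liver. WT hindbrain and heart held no peak there, whereas WT carcass did. Slc22a18 was low, at 0.39, 0.525, 0.399 and 0 in hindbrain, 0.937 and 0.617 in heart, 0 and 0 in carcass and 0.648 in liver. It had no peak in WT or in *Tdg* null carcass, and was higher in *Tdg* null heart than in carcass (log2 difference 2.02, SE 0.54, adjusted p = 0.039), a call kept in 5 of 17 alternative settings. Cdkn1c ranged from 0 to 5.74 among *Tdg* null libraries. Phlda2, at 0 in all 19 libraries, had a window of 11 kb, and 21.3% of all genes had no covered base in the 9 *Tdg* null libraries.

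The Dlk1 to Dio3 cluster on chromosome 12 holds the paternally expressed Notch ligand relative Dlk1 and the maternal noncoding RNAs Meg3, Rian and Mirg. Dlk1 was the most covered imprinted gene in *Tdg* null hindbrain, at 1.9, 6.01, 2.35 and 5.71, and stood at 2.29 and 0 in heart, 4.52 and 4.52 in carcass and 6.91 in liver. Its hindbrains spread widely, with litters O and Z high, and 1 heart held no peak. WT carcass stood at 3.12 and 6.08. Meg3 stood at 3.48, 2.85, 1.81 and 0.736 in hindbrain, 1.06 and 0 in heart, 3.69 and 3.71 in carcass and 2.27 in liver, with WT carcass at 1.57 and 4.29. Rian stood at 1.23, 2.0, 1.63 and 1.29 in hindbrain, 0.902 and 0.689 in heart, 2.19 and 1.94 in carcass and 1.68 in liver. All 3 stood lower in both hearts than in either carcass, and for Rian this difference was called, with a log2 difference of -1.15 (SE 0.27, adjusted p = 0.027). Between hindbrain and heart Rian, higher in hindbrain by value, had a log2 difference of 0.76 (SE 0.24, adjusted p = 0.055), which was not called. Mirg stood at 2.95, 2.75, 2.55 and 1.67 in *Tdg* null hindbrain, 1.92 and 1.46 in heart, 3.94 and 2.92 in carcass and 3.1 in liver. In WT hindbrain Mirg stood at 0, 20.8, 18.3 and 93.5 and in WT carcass at 4.35 and 4.59. The 3 WT hindbrains with a peak in Mirg all overlapped the stretch printed above, which lay under peaks of 3 WT and 4 *Tdg* null hindbrains. Joined over the cluster, *Tdg* null means were 2.06 in hindbrain, 0.848 in heart and 2.82 in carcass. Heart was the lowest of the 3, and its libraries stood apart, at 1.20 and 0.498.

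The Peg10 cluster on chromosome 6 holds Peg10, a paternally expressed gene derived from a retrotransposon and needed in placenta, with Sgce, Ppp1r9a and Asb4. Ppp1r9a, at chr6:4853004-5115661, stood at 2.85, 3.29, 3.22 and 3.19 in *Tdg* null hindbrain, 4.07 and 3.76 in heart, 4.83 and 4.69 in carcass and 6.21 in liver. It held 29 to 103 peaks in a *Tdg* null library and was the only one of the 40 genes covered in all 10 WT libraries. These stood at 5.75, 5.4, 2.35 and 6.3 in hindbrain, 1.66 and 3.97 in heart, 2.73 and 3.11 in carcass and 1.15 and 5.83 in liver. Asb4, a maternally expressed ubiquitin ligase component, stood at 2.89, 3.51, 3.52 and 3.2 in *Tdg* null hindbrain, 3.21 and 3.04 in heart, 4.29 and 3.62 in carcass and 1.94 in liver, with WT carcass at 2.32 and 2.09. It was even across the *Tdg* null embryos of the first 3 tissues. Sgce stood at 2.85, 2.75, 2.19 and 1.35 in *Tdg* null hindbrain, 3.53 and 3.05 in heart, 4.39 and 4.6 in carcass and 6.01 in liver, with WT carcass at 1.41 and 0.903. Peg10 was lower, at 1.32, 0.483, 1.1 and 0.47 in hindbrain, 1.28 and 0 in heart, 1.76 and 2.28 in carcass and 4.26 in liver. In WT hindbrain it stood at 45.1, 9.76, 3.67 and 49.3, above every *Tdg* null hindbrain, and each of these values rests on 1 peak. No gene of the cluster was called between tissues. Joined over the 428 kb, the cluster stood at 2.91 in *Tdg* null hindbrain, 3.56 in heart, 4.46 in carcass and 5.51 in liver.

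Mest and Copg2 overlap at their ends, and their values went apart. Mest, expressed from the paternal copy, stood at 1.51, 1.61, 2.12 and 1.4 in *Tdg* null hindbrain, 3.15 and 1.97 in heart, 2.98 and 2.77 in carcass and 4.16 in liver, with WT carcass at 5.8 and 5.36. Copg2, which encodes a coatomer subunit, stood at 0.14, 0.0939, 0.178 and 0.0856 in hindbrain, 0.624 and 0.37 in heart, 0.28 and 0.432 in carcass and 0.663 in liver. All *Tdg* null libraries of Copg2 lay below the genome level. Window lengths included any unsequenced bases, which the genome length left out, and such bases were not counted per window. The GC content of the Copg2 window, taken over its full length, was 27.0%, the lowest of the imprinted genes. WT hindbrain stood at 13.1, 3.56, 0.803 and 12.6 and WT heart at 6.15 and 4.7, 1 or 2 peaks in each, while WT carcass and liver held none. In the percent covered Copg2 had a log2 difference of -0.11 (SE 0.31, adjusted p = 0.80) between *Tdg* null and WT hindbrain, which was not called. Copg2 was lower in *Tdg* null hindbrain than in heart (log2 difference -0.98, SE 0.23, adjusted p = 0.023).

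The Snrpn cluster, the counterpart of the human Prader-Willi and Angelman region, was the least covered of the clusters with over 1 gene in each of the *Tdg* null tissues. Snrpn, which encodes a splicing protein, has a window of 168 kb and no covered base in any *Tdg* null hindbrain. Across the other 5 *Tdg* null libraries it stood at 0.0368 and 0 in heart, 0 and 0.0158 in carcass and 0 in liver, and no WT library held a peak. Among the 1390 genes with windows at least as long, 28 (2.01%) had no covered base in *Tdg* null hindbrain. The Snrpn window held 4.38 CpGs per kb, against 8.34 in the genome. Ube3a, a ubiquitin ligase expressed from the maternal copy in neurons, stood at 0.253, 0, 0.0968 and 0.155 in *Tdg* null hindbrain, 0.126 and 0.187 in heart, 0.148 and 0.12 in carcass and 0.225 in liver. WT carcass stood at 0.726 and 1.28. Mkrn3, a ubiquitin ligase gene with a role in the timing of puberty, was the exception of the cluster, at 2.88, 3.87, 2.94 and 2.6 in hindbrain, 0 and 0 in heart, 2.07 and 1.48 in carcass and 0 in liver. Each covered *Tdg* null library held 1 peak, and the 6 peaks overlapped in the exon at chr7:69563801-69564000. A peak of 1 WT hindbrain, litter O, also lay there, with the window at 9.02, and the other WT libraries held none. Mkrn3 was the only imprinted gene higher in *Tdg* null hindbrain than in heart, with a log2 difference of 3.72 (SE 0.23, adjusted p = 0.00013), and it was lower in heart than in carcass, with a log2 difference of -3.00 (SE 0.26, adjusted p = 0.00072). Ndn, Magel2 and Peg12 had at most 1 peak in a library, with relative coverage of 0 to 1.28. Joined over 307 kb the cluster stood at 0.223 in *Tdg* null hindbrain, 0.0691 in heart and 0.137 in carcass.

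The Peg3 cluster was also low in *Tdg* null hindbrain and carcass, at 0.415 and 0.345 joined, against 1.29 in heart and 0.893 in liver. Peg3, a paternally expressed zinc finger gene with roles in maternal care and growth, stood at 0.761, 0.614, 0.933 and 0.448 in *Tdg* null hindbrain, 1.12 and 0.752 in heart, 0.356 and 0.58 in carcass and 1.35 in liver. Zim1, its maternally expressed neighbour, stood at 0.269, 0.362, 0.275 and 0 in *Tdg* null hindbrain, 1.39 and 1.95 in heart, 0.239 and 0.384 in carcass and 0 in liver. Usp29 stood at 0, 0, 0 and 0 in *Tdg* null hindbrain, 0.686 and 1.52 in heart, 0 and 0 in carcass and 1.57 in liver, on a model of a single exon in this annotation. Among *Tdg* null libraries Zim1 was highest in both hearts. Zim1 was lower in *Tdg* null hindbrain than in heart (log2 difference -2.07, SE 0.39, adjusted p = 0.011) and higher in heart than in carcass (log2 difference 1.77, SE 0.45, adjusted p = 0.035), the latter a call kept in 6 of 17 alternative settings. Usp29 gave a log2 difference of -2.37 (SE 0.27, adjusted p = 0.0012) and a log2 difference of 2.37 (SE 0.31, adjusted p = 0.0030) in the same comparisons. No *Tdg* null hindbrain or carcass held a peak at Usp29, where each heart and the liver held 1. Usp29 passed the filter of 2 libraries only through the tissues where it was high, so its direction follows from the filter and these values are a description.

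Of the other paternally expressed genes, Plagl1, a zinc finger regulator of growth, stood at 2.29, 1.98, 2.62 and 1.28 in *Tdg* null hindbrain, 3.95 and 4.09 in heart, 3.31 and 3.37 in carcass and 1.55 in liver. Plagl1 was lower in hindbrain than in heart (log2 difference -0.94, SE 0.27, adjusted p = 0.046). Rasgrf1, an exchange factor for Ras, stood at 0.394, 0.0588, 0.201 and 0.214 in *Tdg* null hindbrain, 0.836 and 0.993 in heart, 0.379 and 0.26 in carcass and 0.13 in liver, with WT carcass at 0.335 and 1.18, and was lower in hindbrain than in heart (log2 difference -1.36, SE 0.31, adjusted p = 0.020). All *Tdg* null libraries of Rasgrf1 lay below the genome level. Nnat, a small membrane protein gene inside an intron of Blcap, stood at 0, 0, 5.71 and 2.41 in *Tdg* null hindbrain, 2.13 and 0.854 in heart, 6.11 and 5.41 in carcass and 2.65 in liver. It was uneven in hindbrain, with no peak in litters A and O. Zrsr1, inside an intron of Commd1, stood at 0.628, 0.844, 0.428 and 0.821 in *Tdg* null hindbrain, 0.558 and 1.03 in heart, 0 and 0.797 in carcass and 0 in liver. Commd1, its maternally expressed host and a copper and trafficking gene, stood at 0.706, 0.877, 0.739 and 0.761 in *Tdg* null hindbrain, 2.0 and 1.95 in heart, 0.789 and 1.15 in carcass and 0.753 in liver, with WT carcass at 0.27 and 0.316. Its hearts lay above all other *Tdg* null libraries, with a log2 difference of -1.13 (SE 0.19, adjusted p = 0.0076) for hindbrain against heart and a log2 difference of 0.88 (SE 0.22, adjusted p = 0.034) for heart against carcass. Impact stood at 0.362, 0, 0.833 and 0.355 in *Tdg* null hindbrain, 0 and 0 in heart, 0.181 and 0.129 in carcass and 0 in liver. Plagl1 was above the genome level in every *Tdg* null library, and Impact below it.

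Among genes imprinted in some tissues or isoforms, Grb10 stood at 2.87, 2.28, 2.57 and 2.12 in *Tdg* null hindbrain, 3.76 and 4.39 in heart, 2.37 and 2.34 in carcass and 4.52 in liver. WT heart stood at 3.82 and 4.93 and WT carcass at 4.42 and 3.27. Grb10 was lower in *Tdg* null hindbrain than in heart (log2 difference -0.68, SE 0.19, adjusted p = 0.040). H13 was even, at 2.32, 2.35, 2.94 and 2.77 in hindbrain, 2.66 and 2.01 in heart, 2.94 and 2.88 in carcass and 3.15 in liver, with WT carcass at 2.81 and 5.83. Inpp5f, a phosphoinositide phosphatase gene, stood at 1.93, 1.97, 1.4 and 1.75 in *Tdg* null hindbrain, 2.07 and 1.82 in heart, 1.46 and 1.38 in carcass and 2.05 in liver, above the genome level in every *Tdg* null library, and in both WT livers at 3.3 and 13.9. Gnas ranged from 1.43 to 3.54 and Blcap from 0 to 4.20 in *Tdg* null libraries. By expressed copy, the median relative coverage in *Tdg* null hindbrain was 0.766 over 20 paternally expressed genes, 1.31 over 15 maternally expressed genes and 2.06 over 5 genes imprinted by isoform or tissue. Their ranges overlapped, at 0 to 3.99, 0 to 3.28 and 1.15 to 2.60. The paternally expressed genes include Snrpn, Ndn, Magel2, Mkrn3 and Peg12 of 1 cluster, and some windows of different classes share sequence. A difference between the classes was not tested.

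The comparison of tissues asks whether 5fC patterns are particular to a tissue. The 3 comparisons of *Tdg* null tissues share libraries, so their counts are given side by side. Between hindbrain and heart 1 imprinted gene was higher in hindbrain (Mkrn3; background 11.0% of 27317 genes) and 11 were lower (background 15.6%), of 37 tested (limma on log2 of relative coverage plus 0.25, n = 4 and 2). The 11 were H19, Igf2r, Usp29, Zim1, Airn, Rasgrf1, Igf2, Commd1, Copg2, Plagl1 and Grb10. The median log2 difference was -0.37, against -0.15 over all genes. Between hindbrain and carcass 0 were higher (background 3.15%) and 1 was lower (H19; background 1.92%), with 9 at an unadjusted p below 0.05 in the same limma fit (21.7% of all genes). Between heart and carcass, which were taken from the same embryos, 6 were higher in heart (Usp29, Slc22a18, Igf2, Zim1, Commd1 and Kcnq1; background 15.3%) and 2 lower (Mkrn3 and Rian; background 6.73%).

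The tissue calls were few and some rest on single libraries. Without the *Tdg* null heart of litter pair_b 4 genes were called between hindbrain and heart in place of 12, and of all genes 12.1% in place of 26.6%. Between heart and carcass, in place of 8, 3 were called without that heart, 2 without the carcass of litter pair_a and 5 without the carcass of litter pair_b, and of all genes 9.87%, 9.28% and 12.5% in place of 22.1%. Calls kept in under 10 of the 17 or 18 alternative settings were those of Slc22a18 (5), Zim1 (6) and Commd1 (9) between heart and carcass, H19 (8) between hindbrain and carcass, and Plagl1 (9) between hindbrain and heart. Without Usp29, whose direction follows from the filter, 10 genes were lower in hindbrain than in heart and 5 higher in heart than in carcass. With the litter as a block 0 genes were called between heart and carcass, a fit with 1 residual degree of freedom, in which 11 had an unadjusted p below 0.05 (29.0% of all genes). Heart markers moved with these results, 8 of 8 having peaks in 1 *Tdg* null heart and 7 of 8 in the other, with median relative coverage of 4.96 and 5.36 there. Of 5 blood markers the median was 0.641 and 2.38 in the hearts, 0 to 0.982 in hindbrains and 0.642 and 0.541 in carcasses, and of 8 liver markers it was 1.63 and 1.18 in the hearts and 1.74 in the liver. The part of these markers in the result was not tested.

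**Figure D3:**
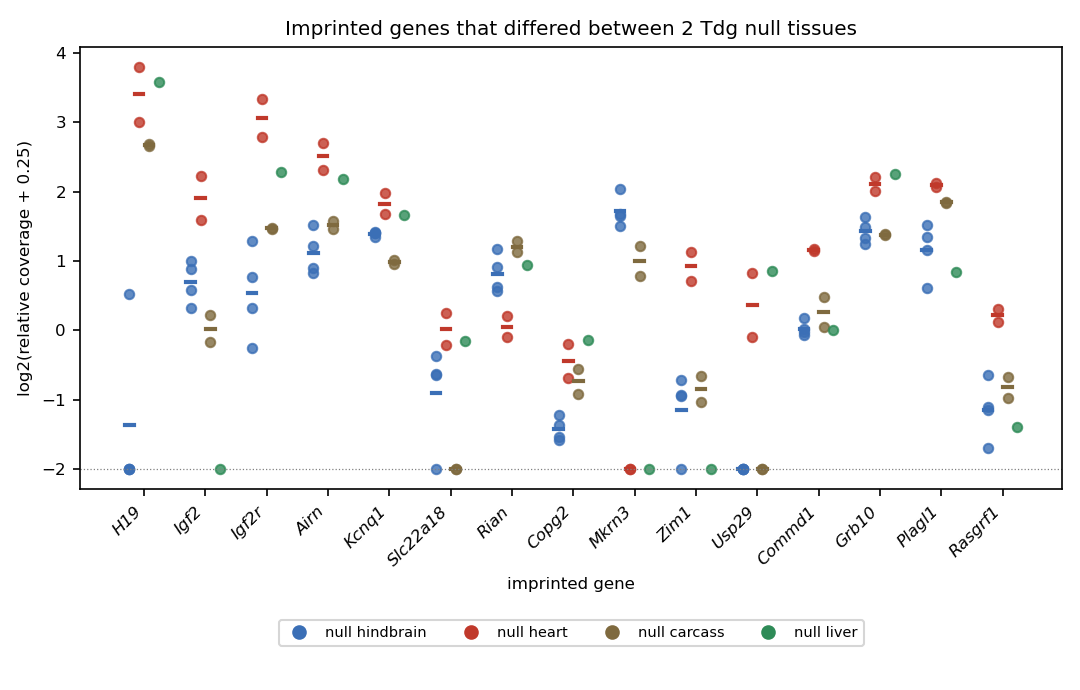
Relative coverage, as log2 of the value plus 0.25, of the 15 imprinted genes called in a comparison of *Tdg* null tissues, with 1 point for each library and a bar for the mean of each tissue with over 1 library. The dotted line is the value of a window with no peak, where both hearts lie for Mkrn3 and 3 of 4 hindbrains for H19.

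The CpG islands of control regions were mostly free of peaks. Within 500 bp of the starts of 8 imprinted genes whose promoter is the control region, 9 CpG islands were found, at Peg3, Kcnq1ot1, Airn, Peg10, Mest, Plagl1, Nnat and Zrsr1, which has 2. Snrpn and Impact, whose promoters are also control regions, have no island that close to the annotated start. No base of the 9 islands lay under a peak in any of 4 *Tdg* null hindbrains, 2 carcasses or the liver, nor in any of 10 WT libraries. The 2 kb on each side of them were covered in *Tdg* null hindbrain at 6.76% ± 3.41 (SD, n = 4), or 1.96 times the genome level, at 1.92 and 1.66 times in carcass and at 0.555 times in liver, and 9 of the 10 WT libraries held no peak there. The exception was the Airn island at chr17:12934307-12935355, inside an intron of Igf2r, of which 47.1% and 28.0% lay under peaks in the 2 *Tdg* null hearts. Its flanks were covered in 8 of the 9 *Tdg* null libraries, at 50%, 12.5%, 15% and 12.5% in hindbrain. The flanks of the Peg3, Kcnq1ot1 and Mest islands held no peak in any library. The 2 Zrsr1 islands are neighbours, so their flanks share peaks in the pooled value.

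In all 9 *Tdg* null libraries the islands of all genes were also covered less than their flanks. Over the 12690 islands at gene starts the inside stood at 0.535 of the genome level in *Tdg* null hindbrain and the flanks at 2.02. In *Tdg* null heart the 9 control islands stood at 6.61% ± 2.37 (SD, n = 2), or 1.19 times the genome level, and all start islands at 0.399. In WT the inside of all start islands stood above the flanks in 5 of the 10 libraries, among them both hearts and, at 2.27 and 2.26, hindbrains A and Z. Hindbrains O and Q stood at 0.420 and 0.321 inside. WT group means inside and in flanks were 1.32 and 0.915 in hindbrain, 1.05 and 0.641 in heart, 0.284 and 0.775 in carcass and 0.851 and 1.21 in liver. The islands are small, so a value of 0 in a library is a weak limit. The control region of H19 was taken as the stretch 2 to 4 kb before its start, at chr7:149766048-149768048. No peak lay inside it in any of 19 libraries, and peaks lay in its flanks in 4 of 9 *Tdg* null libraries, which were 1 hindbrain, 1 carcass and both hearts. The motif TGCCGC, read on both strands (GCGGCA), is the sequence bound by ZFP57 when methylated. It occurred in 7 of the 9 control islands and in 54.0% of all start islands, at 4.87 and 1.30 copies per kb. A match of letters is a description and not a bound site. Within 1 kb of a start, an alternative chosen after the data had been seen, an island of Impact was covered in 1 *Tdg* null carcass.

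**Figure D4:**
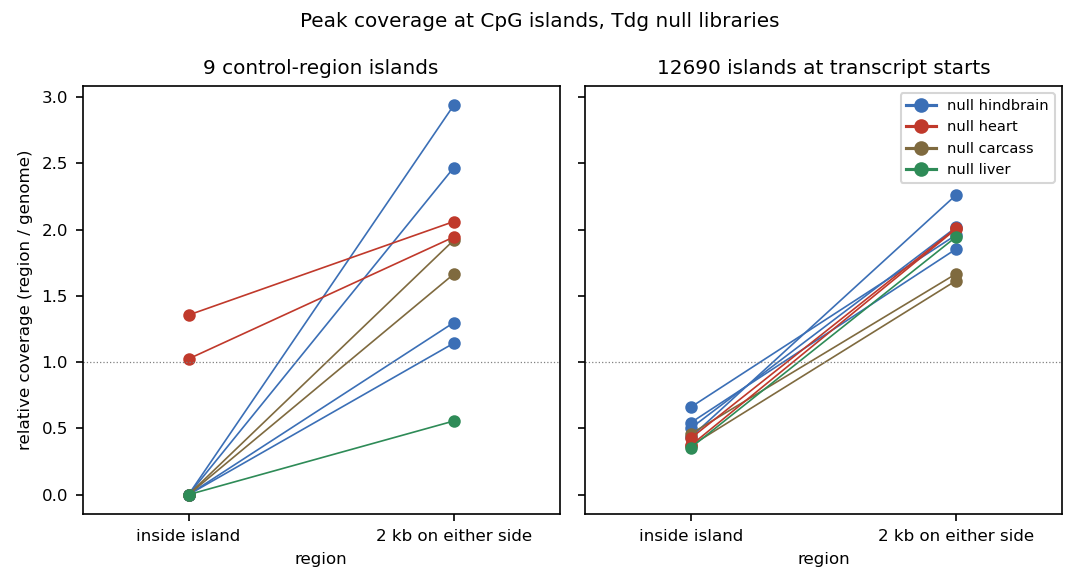
Relative coverage inside islands and in the 2 kb on either side, for 9 islands of imprinting control regions (left) and 12690 islands at transcript starts (right), with a line for each of the 9 *Tdg* null libraries and a dotted line at the genome level of 1. Inside the control islands 7 libraries lie at 0 and both hearts above 1.

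A stretch of Copg2 lay under peaks in more WT than *Tdg* null libraries. It was chosen after the values had been seen and is shown because Copg2 was lower in relative coverage in *Tdg* null hindbrain and heart than in WT. In the percent covered, Copg2 was called higher in *Tdg* null than in WT heart and was not called in hindbrain. Its relative coverage in WT rests on few peaks in libraries that cover little of the genome. At chr6:30754701-30755000, in an intron, it lay under peaks of 4 WT hindbrains, 2 WT hearts and 3 *Tdg* null hindbrains, and of no carcass or liver. CpGs are in capitals.
Copg2 chr6:30754701-30755000: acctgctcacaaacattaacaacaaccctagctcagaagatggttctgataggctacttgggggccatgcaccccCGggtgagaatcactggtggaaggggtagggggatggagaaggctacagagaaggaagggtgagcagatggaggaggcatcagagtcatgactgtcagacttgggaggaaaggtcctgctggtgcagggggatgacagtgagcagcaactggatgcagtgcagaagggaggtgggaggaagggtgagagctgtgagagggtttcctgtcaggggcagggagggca
Each WT hindbrain held 1 peak in the Copg2 window, and that peak covered this stretch.

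A second list of 30 imprinted genes that are not among the 40 had 26 genes tested. In hindbrain 25 of 26 were higher in *Tdg* null (background 73.9%), in heart 22 (background 73.1%) and in carcass 22 (background 62.4%), and 0 were lower in each. Their median log2 difference in hindbrain was 3.27, against 2.51 for the 37 genes above and 2.65 over all genes. The lists were not tested against each other. Between *Tdg* null tissues 3 were higher and 3 lower in hindbrain than in heart (backgrounds 11.0% and 15.6%), 0 and 0 between hindbrain and carcass (3.15% and 1.92%), and 1 higher and 0 lower in heart than in carcass (15.3% and 6.73%).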

How the data were processed

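5fC pull-down libraries of 20 dissected tissues were used as the authors deposited them, as peak positions (start and end in bases, with no read counts, heights or scores). Per the labels and the methods of the study, the authors trimmed reads with Trim Galore, aligned them to NCBIM37 (mm9) with Bowtie2 and called peaks in each library on its own with MACS in SeqMonk (p cutoff 1e-05, fragment size 200 bp). Positions lie on a grid of 100 bp and were read as 1-based and inclusive. A window without peaks lies below the caller's limit, which is not a level of 0.

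Here the bases under peaks were counted in gene windows (body plus 5 kb) on 21 chromosomes with Python 3.11.15, numpy 2.4.6 and pandas 2.3.3. Genotypes were compared with limma 3.58.1 (R 4.3.3) on log2(percent covered + 0.5) over 19 libraries in 8 groups, and *Tdg* null tissues on log2(relative coverage + 0.25) over 9 libraries, for genes covered in at least 2 libraries. P-values were adjusted by Benjamini-Hochberg over all genes tested and called below 0.05. Liver was left untested. CpG islands had at least 200 bp, 50% GC and observed over expected CpG above 0.6. Within a group, replicates are separate embryos, and p-values measure the spread within groups, pooled over all groups of a fit. Heart, liver and carcass share embryos, and the fits given first treat their libraries as independent.

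The labels pair genotypes by litter. Deviations of littermates correlated at 0.072, 0.018, -0.039 and -0.041 in hindbrain, at -0.063 in heart and at -0.072 in carcass, and fits without litter are given first. Gene windows, lists and comparisons were chosen with earlier results of these data known. Values in every library are given for the 5 imprinted genes with the largest and those with the smallest mean relative coverage in *Tdg* null hindbrain, those covered in all libraries of a WT group, those called between tissues and those with a control region. Alternatives covered pseudocounts, filters, window sizes, peak lengths, peak counts, scaling, thinning, blocks and leaving out each library. RefSeq promoter sequence of a later assembly (GRCm38.p6) served only to place Kcnq1ot1. Some stretches under peaks are not reported here.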

Additional observations from a re-analysis of the deposited data

How the results depend on the processing

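Counts of called imprinted genes moved as follows. Between genotypes, the 27 called in hindbrain became 14 with the percent taken without a logarithm (26 to 28 with each library left out), the 27 in heart became 17 with relative coverage (24 to 32) and the 24 in carcass became 4 with relative coverage (15 to 23). Between hindbrain and heart, 12 became 7 with peaks per 10 kb and 5 with peaks thinned to equal numbers (4 to 13). Between hindbrain and carcass, 1 became 0 with a pseudocount of 0.1, with windows of 10 kb flanks or with peaks per 10 kb, and 3 without flanks (0 to 1). Between heart and carcass, 8 became 13 with a pseudocount of 1, 2 with the percent not relative to the genome, and 3 with peaks per 10 kb or thinned peaks (2 to 8). Calls over all genes moved too, from 74.0% to 53.8% without a logarithm in hindbrain, from 73.5% to 45.6% in heart and 63.2% to 24.3% in carcass with relative coverage, from 26.6% to 16.4% and 9.77% between hindbrain and heart with peaks per 10 kb and thinned peaks, and from 22.1% to 25.4%, 11.6%, 12% and 8.49% between heart and carcass with a pseudocount of 1, the percent, peaks per 10 kb and thinned peaks. Between hindbrain and carcass the share lay between 4.22% and 5.73% in the settings named. With the litter as a replicate block the calls were 27 in hindbrain, 27 in heart, 21 in carcass and 0 between heart and carcass, where 1 residual degree of freedom was left, and no block was possible between hindbrain and the other tissues, which came from other litters. The median difference in hindbrain, 2.51, became 4.0 and 1.39 with pseudocounts of 0.1 and 2, 4.39 percentage points without a logarithm, 2.93 with peaks of at least 600 bp or a filter of 6 of 19 libraries, and 1.29 with relative coverage (2.37 to 2.95). Among the genes called, the sign turned with relative coverage for Ppp1r9a (-0.54), Mest (-0.0047), Kcnq1 (-0.022) and Rian (-0.67) in hindbrain, for Copg2 (-2.93), Peg3 (-0.39) and Grb10 (-0.089) in heart, and for H13 (-0.45), Mest (-0.90), Kcnq1 (-1.15), Rasgrf1 (-0.69) and Grb10 (-0.64) in carcass. Relative coverage of the joined windows with peaks of at least 600 bp was 1.78 in hindbrain (1.56 to 1.64 with a library left out), 2.56 in heart (2.35 to 2.47), 2.12 in carcass (1.98 to 1.98) and 2.73 in liver. Without flanks it was 2.51, 2.09 and 2.67 in heart, carcass and liver, with 10 kb flanks 2.29, 1.90 and 2.36, and with the set-aside liver included 1.25 in liver. In carcass the flanks of control islands became 17.2% with stricter islands, 4.83% with 1-kb flanks and 9.29% with islands within 1 kb of a start (10.3 to 12.6), and the inside became 0.181%. Causes of these shifts were not tested. Peak positions carry no read counts, so depth could not be set equal, hearts and carcasses number 2 of each genotype, and Usp29 has only part of its model in this annotation.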
